A study of Mus musculus with 12 samples.

Results

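The genes described here are 54 genes of mitosis, listed by name: cyclins and kinases that start mitosis, the spindle checkpoint, the kinetochore, spindle motors and the machinery of cytokinesis. They were read from RNA sequencing of the external granule layer (EGL) of the mouse cerebellum. All 54 were found among the 53379 gene rows of each deposited table, and all 54 passed the filter on low counts that left 13442 genes for testing. Their lowest count in any of the 12 libraries was 25 reads.

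The EGL is the layer under the surface of the young cerebellum in which granule neuron precursors divide, driven by Sonic hedgehog from Purkinje cells, before they leave the cycle and become neurons. In a dividing cell, Cdk1 with cyclin B starts mitosis, Aurora and Polo kinases build the spindle, and kinetochores on each centromere catch its microtubules. The spindle checkpoint holds back the anaphase-promoting complex until every kinetochore is attached. Separase then frees the sister chromatids, and the central spindle and a contractile ring divide the cell. Most of these transcripts accumulate in G2 and M phase, under the transcription factors B-Myb and FoxM1 and the MuvB complex.

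The tissue was taken at postnatal day 6 from C57BL/6 mice with a conditional knockout of SnoN (KO), a SMAD-binding transcriptional regulator encoded by Skil, and from wild-type control littermates (WT). The EGL of the central lobules was cut out by laser microdissection. The Cre driver and the deleted exons are stated nowhere in the labels. There were 6 KO and 6 WT libraries; the submitters marked KO4 and WT2 as outliers, and the comparison used KO2, KO3, KO5, KO6 and KO8 against WT1, WT3, WT5, WT6 and WT7. Values in those 5 KO and 5 WT libraries are given in these orders throughout, as counts scaled by library size and TMM factors (CPM). The genotype tag of KO2 reads wild type although its title reads KO, and it was kept as KO. Nothing in the labels says that each library came from its own animal, and the p-values therefore measure how far libraries differ, which may in part be technical.

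Gene counts summed to between 7520076 and 15083086 per library. Skil had 36.1, 36.7, 20.9, 30.1 and 29.9 CPM in KO, against 47.5, 57.8, 57.3, 38.5 and 48.5 CPM in WT, and the groups did not overlap (log2 fold change -0.70, SE 0.15, adjusted p = 0.124 by edgeR's quasi-likelihood test). With the trend on GC content described below removed, Skil passed at -0.93 (adjusted p = 0.00104 by edgeR), and by DESeq2 it passed at -0.70 (adjusted p = 0.0104). The summed level of 11 granule precursor markers was 4744 to 8031 CPM in KO and 4105 to 6210 CPM in WT, with 3 higher and 1 lower (edgeR, unadjusted p under 0.05). Among them Atoh1 averaged 95.8 CPM in KO and 92.2 CPM in WT, Neurod1 3628 and 2582 CPM, Pax6 619 and 491 CPM, and Barhl1 117 and 158 CPM. Neurod1 alone, at 2028 to 4693 CPM in KO and 1498 to 3406 CPM in WT, made up much of the sum. The sum is therefore not an even measure of the 11 markers, and no level of dividing precursors is read from it. That of 10 granule neuron markers was 1936 to 2520 CPM in KO and 2142 to 2462 CPM in WT, with 1 of the 7 tested higher and 3 lower. Markers of other cells were present too. The summed level of 10 Purkinje cell markers was 336 to 597 CPM in KO and 271 to 382 CPM in WT, with 5 of the 9 tested higher and 1 lower (edgeR, unadjusted p under 0.05). That of 10 Bergmann glia and astrocyte markers was 1172 to 1538 CPM in KO and 931 to 1393 CPM in WT. The part of these cells in the results that follow was not tested.

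Promoters of these genes share elements that the list was not chosen on. A promoter window, from 250 bases before to 50 bases after a RefSeq transcription start, was at hand for 46 of the 54 genes. The cell cycle genes homology region (CHR), the element bound by MuvB, was searched as TTTGAA or TTCGAA and the CCAAT box, bound by NF-Y, as CCAAT, each on both strands. A CHR match was in the windows of 32 of the 46 genes (69.6%), against 21.7% of all 27025 genes with a window. A CCAAT match was in 33 (71.7%), against 41.1% of all genes. Both were in 27 (58.7%), against 8.6%, and 20 had at least 2 CCAAT matches (43.5%, against 13.3%). The CHR matches lay near the start: 21 of the 46 genes (45.7%) had one in the 50 bases after it, against 2.9% of all genes. The E2F-type letters GGCGGGAA were rare, in 3 of the 46 (6.5%) and in 2.5% of all genes. In 1 of the members' windows matches of different motifs overlapped. A match is a run of letters and not a shown binding site.

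**Figure D1:**
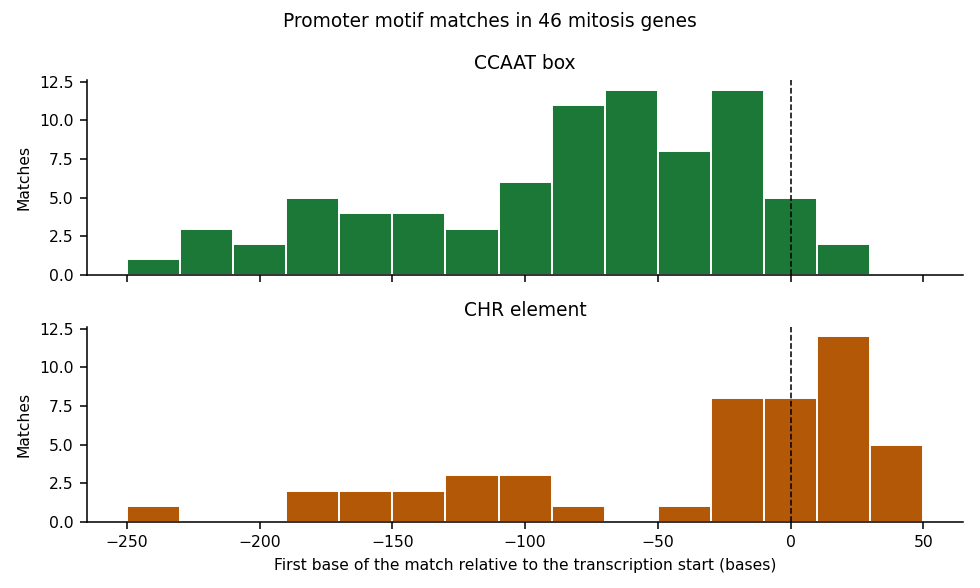
Positions of CCAAT and CHR matches in the promoter windows of 46 mitosis genes; the x axis is the distance of the first base of a match from the transcription start in bases, and bar height is the number of matches per 20 bases. CCAAT matches gather before the start, and 21 of the genes have a CHR match after it.

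The windows of 4 genes are shown, with CCAAT and CHR matches in capitals: both B-type cyclins, as a related pair, and Ttk and Hjurp, the genes with the smallest p on the higher side and on the lower side that also carry a CHR match. Ccnb1 is at chr13:100786437-100786736 (minus strand), Ccnb2 at chr9:70421505-70421804 (minus), Ttk at chr9:83834439-83834738 (plus) and Hjurp at chr1:88277530-88277829 (minus), all in RefSeq on GRCm38.p6, written 5′ to 3′ on the gene's strand.
Ccnb1: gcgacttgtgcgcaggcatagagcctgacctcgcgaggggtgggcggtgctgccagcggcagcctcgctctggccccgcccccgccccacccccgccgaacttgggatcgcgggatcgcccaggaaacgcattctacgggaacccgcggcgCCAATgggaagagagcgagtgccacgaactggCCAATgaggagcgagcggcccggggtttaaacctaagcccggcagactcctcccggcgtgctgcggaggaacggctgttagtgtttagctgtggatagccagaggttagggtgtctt
Ccnb2: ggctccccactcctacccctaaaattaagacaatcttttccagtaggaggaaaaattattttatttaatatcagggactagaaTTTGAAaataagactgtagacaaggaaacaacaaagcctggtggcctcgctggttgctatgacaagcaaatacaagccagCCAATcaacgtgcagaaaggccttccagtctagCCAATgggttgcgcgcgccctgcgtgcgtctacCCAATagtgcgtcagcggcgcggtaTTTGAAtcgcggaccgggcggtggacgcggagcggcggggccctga
Ttk: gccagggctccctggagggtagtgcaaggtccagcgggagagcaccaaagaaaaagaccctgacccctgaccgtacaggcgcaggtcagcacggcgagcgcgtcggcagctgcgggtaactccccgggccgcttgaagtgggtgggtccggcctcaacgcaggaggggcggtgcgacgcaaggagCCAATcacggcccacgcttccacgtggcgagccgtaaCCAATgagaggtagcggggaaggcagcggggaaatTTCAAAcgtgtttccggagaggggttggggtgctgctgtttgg
Hjurp: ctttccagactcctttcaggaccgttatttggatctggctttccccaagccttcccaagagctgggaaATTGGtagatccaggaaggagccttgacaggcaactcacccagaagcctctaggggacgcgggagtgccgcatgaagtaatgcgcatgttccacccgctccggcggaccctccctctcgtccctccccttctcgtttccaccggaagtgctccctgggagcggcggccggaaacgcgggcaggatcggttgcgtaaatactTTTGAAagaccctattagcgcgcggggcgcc
In Ccnb2 a CHR match begins 4 bases after the start and another 167 bases before it, and CCAAT matches begin 21, 54 and 87 bases before it. In Ttk a CHR match begins 7 bases after the start with CCAAT matches 28 and 65 bases before it, and in Hjurp a CHR match begins 19 bases after the start with a CCAAT match 182 bases before it. The Ccnb1 window has CCAAT matches 67 and 99 bases before the start and no match to these CHR letters. Of the 46 genes, the 32 with a CHR match had a median log2 fold change of -0.01 in the comparison below and the 14 without had -0.04.

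Between genotypes, no mitosis gene reached an adjusted p of 0.05 over all 13442 genes tested, higher or lower, by edgeR's quasi-likelihood test; among all genes 0.0149% were called as higher and 0.00744% as lower. By DESeq2 on the same libraries 2 passed as higher, Ttk and Casp8ap2, and 1 as lower, Hjurp. These were 3.7% and 1.85%, against 2.36% and 2.23% of the 10054 genes to which DESeq2 gave an adjusted p. At an unadjusted p under 0.05, 12 of the 54 were higher in KO (22.2%, against 11.8% of all genes tested) and 6 were lower (11.1%, against 9.97%). Their median log2 fold change was -0.07, against 0.00 over all genes tested, and 23 of 54 estimates were above 0 (42.6%, against 50.1%). All 5 KO libraries lay above all 5 WT libraries for 1 of the 54 genes, Ttk (1.85%, against 1.04% of all genes), and below them for 1, Mybl2 (1.85%, against 1.31%). The summed level of the 54 genes was 6230, 6839, 6277, 5876 and 6084 CPM in KO, against 5790, 6072, 5858, 6258 and 6064 CPM in WT, so the groups overlapped. In bulk tissue, a change in the share of dividing cells and a change in RNA per dividing cell cannot be told apart.

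**Figure D2:**
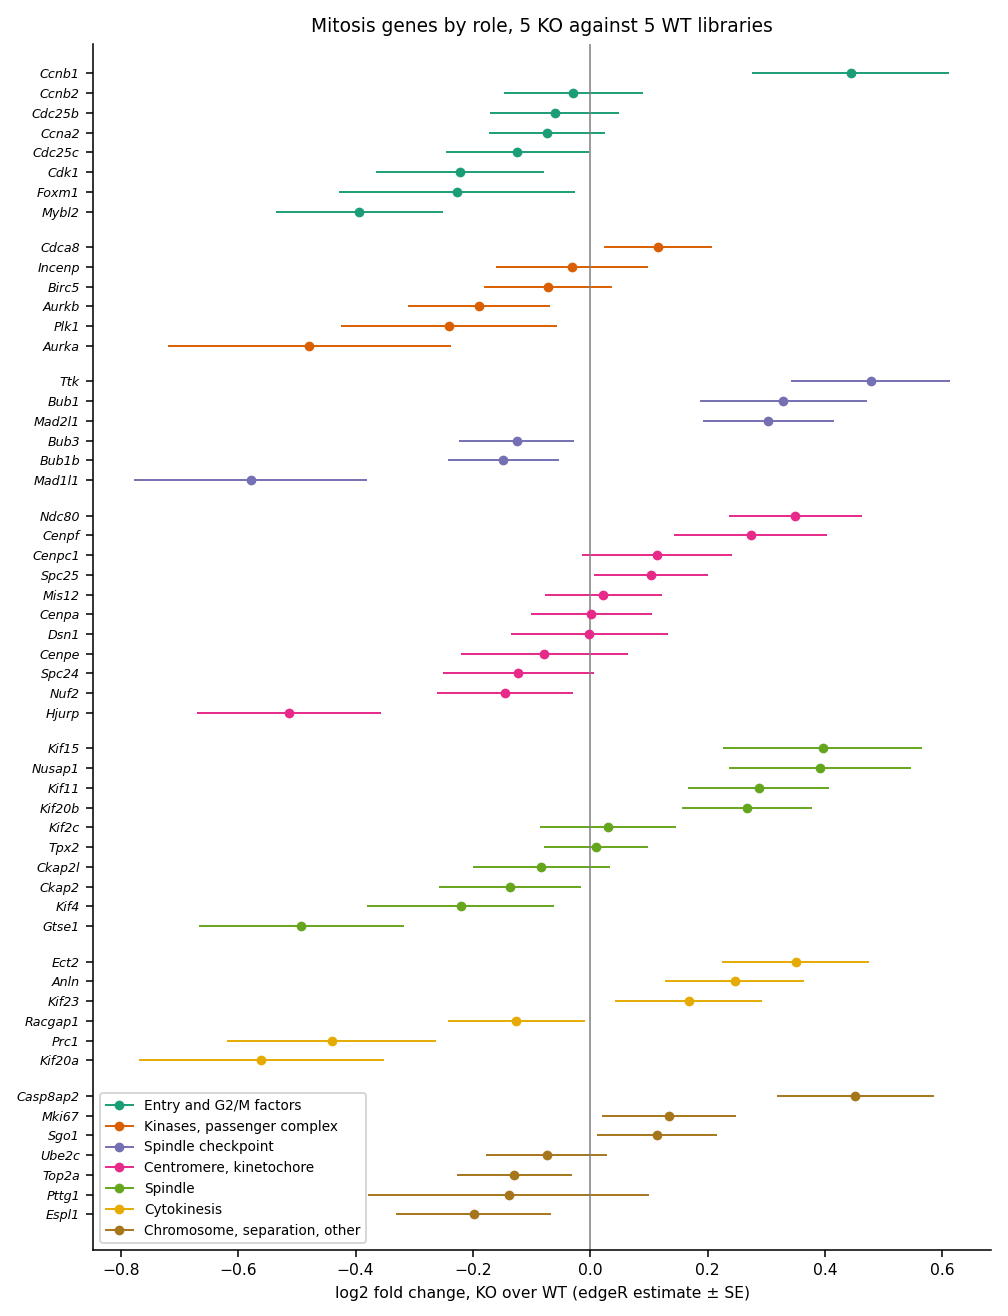
Log2 fold change, KO over WT, of the 54 mitosis genes, grouped by role, with points for edgeR's estimate and bars for its standard error, from 5 KO and 5 WT libraries. Every role holds genes on both sides of 0, from -0.58 for Mad1l1 to 0.48 for Ttk, and none passed an adjusted p of 0.05.

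Among the genes of mitotic entry, Ccnb1, encoding cyclin B1, had 169, 190.0, 88.2, 124 and 163 CPM in KO, against 98.1, 127, 109, 88.0 and 118 CPM in WT. Of the KO libraries, 3 were above every WT library, and KO5 was next to the lowest WT library. The log2 fold change was 0.44 (SE 0.17, adjusted p = 0.160 by edgeR's test). In Ccnb1, 42.1% of the 50-base windows of the longest transcript also occur in other transcripts, chiefly its pseudogenes, and reads placed in several genes were not counted, so its level is uncertain. Ccnb2, encoding the related cyclin B2, averaged 116 ± 19.2 CPM in KO and 118 ± 12.6 CPM in WT (SD, n = 5 each), with a log2 fold change of -0.03 (SE 0.12).

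Mybl2, encoding B-Myb, which acts with MuvB on G2/M promoters, had 13.4, 19.0, 16.5, 18.8 and 15.98 CPM in KO, against 19.5, 19.2, 20.96, 25.2 and 25.0 CPM in WT. The groups did not overlap, although KO3 and WT3 were close, at 19.0 and 19.2 CPM, and the two-sided exact permutation p was 0.00794, the smallest that 5 against 5 libraries can give. The log2 fold change was -0.39 (SE 0.14), with an adjusted p of 0.152 in edgeR's test, and -0.22 (SE 0.14) with the GC trend removed. Of the windows of Mybl2, 23.85% also occur in other genes' transcripts, so its count is uncertain. Foxm1, encoding the factor that follows B-Myb on the same promoters, had 31.7, 22.0, 35.2, 23.2 and 23.2 CPM in KO, against 29.5, 22.7, 22.1, 48.1 and 36.6 CPM in WT, groups that overlapped widely (log2 fold change -0.23, SE 0.20).

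Cdk1, the kinase that drives entry, had 114, 166, 190.2, 138 and 112 CPM in KO, against 160.4, 139.9, 157, 205 and 179 CPM in WT. KO2, KO6 and KO8 were below every WT library and KO5 was above 4 of them (log2 fold change -0.22, SE 0.14, adjusted p = 0.370 in edgeR's test). Ccna2, encoding cyclin A2, and the Cdk1-activating phosphatases Cdc25b and Cdc25c had log2 fold changes of -0.07 (SE 0.10), -0.06 (SE 0.11) and -0.12 (SE 0.12). Per kilobase of exon, Ccna2 and Ccnb2 had the highest means of this group, 74.0 and 75.8 CPM per kilobase in KO against 77.9 and 77.4 in WT, and Mybl2 the lowest, 3.61 in KO against 4.75 in WT. The length used here and below was that of all annotated exons of a gene merged, not that of the transcript expressed. Ranks per kilobase therefore depend in part on the annotation. Of the windows of Ccna2, 15.9% are shared with Exosc9, so its count is uncertain.

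Of the Aurora and Polo kinases and the passenger complex, 0 of 6 genes reached an unadjusted p of 0.05 (edgeR). Among all genes tested 11.8% did so as higher and 9.97% as lower. Aurka, encoding the Aurora kinase of spindle poles, ranged from 19.1 to 56.7 CPM in KO and from 33.9 to 52.7 CPM in WT (log2 fold change -0.48, SE 0.24, adjusted p = 0.258). Plk1, encoding Polo-like kinase 1, had 30.7, 35.6, 64.1, 33.6 and 27.9 CPM in KO, against 44.2, 45.2, 38.2, 52.7 and 46.4 CPM in WT. The other 4 KO libraries were below every WT library, while KO5 was above all of them, and the log2 fold change was -0.24 (SE 0.18).

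Aurkb, the kinase subunit of the passenger complex that corrects faulty attachments, had 105, 106, 127, 96.4 and 90.7 CPM in KO, against 114, 102, 114, 154 and 115 CPM in WT (log2 fold change -0.19, SE 0.12). The groups overlapped. Its partners Cdca8 (borealin), Birc5 (survivin) and the scaffold Incenp had log2 fold changes of 0.12 (SE 0.09), -0.07 (SE 0.11) and -0.03 (SE 0.13). Per kilobase, Aurkb, Cdca8 and Birc5 stood at 35.7, 37.0 and 32.9 CPM per kilobase in KO, against 40.7, 34.2 and 34.6 in WT. The lowest of this group was Aurka in KO, at 12.8, and Incenp in WT, at 15.2.

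Among the 6 genes of the spindle checkpoint, 3 were higher in KO and 1 was lower, taking an unadjusted p of 0.05 as the limit, which 11.8% of all genes passed as higher and 9.97% as lower. With the GC trend removed it was 1 and 1 (all genes 8% and 7.67%). Ttk, encoding the kinase (Mps1) that starts checkpoint signalling at unattached kinetochores, had 54.5, 72.8, 48.1, 43.7 and 52.0 CPM in KO, against 31.4, 39.6, 39.5, 41.0 and 43.4 CPM in WT. Every KO library was above every WT library, and KO6 and WT7 were close, at 43.7 and 43.4 CPM. The mean was 54.2 ± 11.2 CPM in KO and 39.0 ± 4.49 CPM in WT (SD, n = 5 each). The log2 fold change was 0.48 (SE 0.14, adjusted p = 0.131 in edgeR's test; two-sided exact permutation p = 0.00794). Ttk (ENSMUSG00000038379.15) lies on chromosome 9 from 83834689 to 83872389, plus strand, in GRCm38, and 0% of its windows are shared with another gene.

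Mad2l1 and Mad1l1 encode partners, Mad2, which inhibits Cdc20, and Mad1, which brings Mad2 to the kinetochore. Mad2l1 had 343, 425, 276, 307 and 349 CPM in KO, against 267, 290.1, 267, 253 and 301 CPM in WT, with 4 KO libraries above all WT libraries (log2 fold change 0.30, SE 0.11, adjusted p = 0.158 in edgeR's test). Mad1l1 had 6.52, 5.98, 9.45, 7.40 and 5.11 CPM in KO, against 10.045, 12.5, 7.83, 9.404 and 11.5 CPM in WT, with 4 KO libraries below all WT libraries (-0.58, SE 0.20, adjusted p = 0.145). The ratio of Mad2l1 to Mad1l1 was 29.2 to 71.2 in KO and 23.1 to 34.1 in WT. Mad1l1 lies opposite 3 genes, but 0% of the 50-base windows of its longest transcript occur in another gene's transcripts.

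Bub1, encoding the kinase that recruits shugoshin to the inner centromere, had 95.2 to 177 CPM in KO and 103 to 129 CPM in WT (log2 fold change 0.33, SE 0.14, adjusted p = 0.193 in edgeR's test). KO2, KO3 and KO8 were above every WT library, and KO5 was below every one. Bub1b, encoding BubR1 of the mitotic checkpoint complex, had a log2 fold change of -0.15 (SE 0.09) and Bub3, the adaptor of both, -0.13 (SE 0.10). Per kilobase, Mad2l1, Bub1 and Bub3 had means of 40.5, 33.5 and 29.0 CPM per kilobase in KO, against 32.9, 26.7 and 31.7 in WT, and Mad1l1 had the lowest of all 54 genes, 1.89 in KO against 2.81 in WT.

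At the centromere and kinetochore, 2 of 11 genes stood higher and 1 lower by the same limit (all genes 11.8% and 9.97%). With the GC trend removed, 0 stood higher and 2 lower (all genes 8% and 7.67%). Hjurp, encoding the chaperone that loads CENP-A, had 54.4, 59.5, 90.4, 68.0 and 57.4 CPM in KO, against 77.8, 80.8, 84.7, 131 and 97.0 CPM in WT. Of the KO libraries, 4 were below every WT library, and KO5 was in the middle of them. The mean was 65.9 ± 14.6 CPM in KO and 94.3 ± 21.8 CPM in WT (SD, n = 5 each). The log2 fold change was -0.51 (SE 0.16, adjusted p = 0.131 in edgeR's test; two-sided exact permutation p = 0.0317). Hjurp (ENSMUSG00000044783.16) lies on chromosome 1 from 88262471 to 88277633, minus strand, in GRCm38.

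Cenpa, encoding the histone variant that Hjurp loads, averaged 460.3 ± 51.5 CPM in KO and 459.9 ± 37.4 CPM in WT (SD, n = 5 each), with a log2 fold change of 0.00 (SE 0.10). Per kilobase it was the highest of the kinetochore group, at 78.6 CPM per kilobase in KO and 78.5 in WT, followed by Spc25 at 70.5 in KO against 65.7 in WT, and Spc24 at 60.5 in KO against 65.8 in WT. Cenpe, encoding a kinesin of the outer kinetochore, had the lowest level of this group at 4.03 in KO against 4.25 in WT.

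Ndc80, encoding the microtubule-binding subunit of the complex named for it, had 119, 127, 95.8, 89.3 and 95.9 CPM in KO, against 78.7, 80.8, 81.6, 77.7 and 94.1 CPM in WT. All KO libraries but KO6 were above every WT library (log2 fold change 0.35, SE 0.11, adjusted p = 0.139 in edgeR's test). The other 3 subunits had estimates in both directions, Nuf2 -0.15 (SE 0.12), Spc24 -0.12 (SE 0.13) and Spc25 0.10 (SE 0.10). Cenpf, a large coiled-coil protein of the outer kinetochore, had 0.27 (SE 0.13, adjusted p = 0.229). Mis12 and Dsn1 of the Mis12 complex were at 0.02 (SE 0.10) and -0.00 (SE 0.13), and Cenpc1, which ties the complex to centromeric chromatin, at 0.11 (SE 0.13).

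Of the 10 spindle genes, 4 stood higher and 1 lower by the unadjusted limit (all genes 11.8% and 9.97%). With the GC trend removed, 0 stood higher and 2 lower (all genes 8% and 7.67%). Nusap1, encoding a microtubule-bundling protein near chromosomes, had 234, 282, 144, 178 and 209 CPM in KO, against 131, 190.4, 159, 140.2 and 178 CPM in WT, groups that overlapped (log2 fold change 0.39, SE 0.15, adjusted p = 0.170 in edgeR's test). Kif11, encoding the motor (Eg5) that pushes spindle poles apart, had 167 to 278 CPM in KO and 177 to 215 CPM in WT (0.29, SE 0.12, adjusted p = 0.185). Kif15, a kinesin that assists it, had 45.3 to 99.5 CPM in KO and 45.1 to 62.8 CPM in WT (0.40, SE 0.17, adjusted p = 0.192). In both, 4 KO libraries were above all WT libraries and KO5 was the lowest KO library.

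Kif20b and Kif20a are related kinesins of late mitosis with estimates of opposite sign. Kif20b had 34.3, 34.8, 35.0, 27.8 and 33.7 CPM in KO, against 28.5, 29.3, 26.6, 26.5 and 26.7 CPM in WT, with all KO libraries but KO6 above every WT library (log2 fold change 0.27, SE 0.11, adjusted p = 0.184 in edgeR's test). Kif20a, encoding the motor that carries the passenger complex to the central spindle, had 8.86, 10.6, 18.1, 11.1 and 7.05 CPM in KO, against 14.6, 13.9, 18.1, 19.9 and 15.7 CPM in WT (-0.56, SE 0.21, adjusted p = 0.158). The ratio of Kif20b to Kif20a was 1.94 to 4.78 in KO and 1.33 to 2.11 in WT. Of the windows of Kif20a, 31.2% are shared with Cdc23, which overlaps it on the opposite strand, so its count is uncertain.

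Gtse1, encoding a microtubule-binding protein that also acts on p53, had 10.8, 12.3, 18.5, 14.5 and 9.57 CPM in KO, against 18.7, 20.1, 14.4, 19.2 and 19.9 CPM in WT. KO5 was within the WT values (log2 fold change -0.49, SE 0.17, adjusted p = 0.149 in edgeR's test). Per kilobase, Tpx2, which activates Aurora A, and Nusap1 stood highest of the spindle genes, at 41.2 and 51.6 CPM per kilobase in KO against 41.0 and 39.3 in WT. Tpx2 had the narrowest standard error of the 54 genes, with a log2 fold change of 0.01 (SE 0.09). Kif2c, a microtubule depolymerase, Kif4, a chromokinesin, Ckap2 and Ckap2l had estimates between -0.22 and 0.03.

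In cytokinesis, 1 of 6 genes was higher and 2 were lower by the unadjusted limit (all genes 11.8% and 9.97%). With the GC trend removed, 0 were higher and 2 lower (all genes 8% and 7.67%). Ect2, encoding the exchange factor that activates RhoA at the cleavage site, had 480.0, 421, 353, 381 and 484 CPM in KO, against 339.9, 425, 331, 287 and 281 CPM in WT, groups that overlapped through WT3 (log2 fold change 0.35, SE 0.13, adjusted p = 0.150 in edgeR's test). Prc1, which bundles antiparallel microtubules of the central spindle, had 25.7, 35.8, 40.5, 32.8 and 20.9 CPM in KO, against 44.4, 27.3, 42.7, 49.1 and 47.5 CPM in WT (-0.44, SE 0.18, adjusted p = 0.176). The other lower gene was Kif20a. Anln, encoding the ring scaffold anillin, had 0.25 (SE 0.12, adjusted p = 0.234), and the centralspindlin subunits Kif23 and Racgap1 had 0.17 (SE 0.12) and -0.13 (SE 0.12). Per kilobase, Ect2 and Racgap1 led with 78.7 and 20.2 CPM per kilobase in KO against 61.8 and 22.1 in WT.

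Among the remaining genes, Casp8ap2, encoding FLASH, which processes histone pre-mRNA and binds caspase-8, had 147, 157, 104, 133 and 168 CPM in KO, against 102, 135, 97.9, 92.7 and 92.6 CPM in WT. KO2, KO3 and KO8 were above all WT libraries (log2 fold change 0.45, SE 0.13, adjusted p = 0.131 in edgeR's test). Mki67, encoding Ki-67, the coat protein of mitotic chromosomes used to count cycling cells, had 164, 185, 133, 127 and 129 CPM in KO, against 127, 147, 129, 129 and 142 CPM in WT (0.13, SE 0.11). Top2a, which disentangles sister DNA, had 277, 299.7, 288, 249.97 and 227 CPM in KO, against 282, 294, 276, 316 and 300.4 CPM in WT (-0.13, SE 0.10). Both pairs of groups overlapped.

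Ube2c, the ubiquitin-conjugating enzyme of the anaphase-promoting complex, had the highest level per kilobase of merged exons of all 54 genes, 88.3 CPM per kilobase in KO against 93.0 in WT, and a log2 fold change of -0.07 (SE 0.10). Of its windows, 17.8% also occur in other genes' transcripts, so its count is uncertain. Espl1, encoding separase, was at the other end of its group, 2.63 CPM per kilobase in KO against 3.02 in WT (log2 fold change -0.20, SE 0.13). Its inhibitor Pttg1 (securin) had -0.14 (SE 0.24) and the cohesin protector Sgo1 0.11 (SE 0.10). Over all 54 genes the level per kilobase ran from 1.89 to 88.3 in KO and from 2.81 to 93.0 in WT, with medians of 15.5 in KO and 15.2 in WT.

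**Figure D3:**
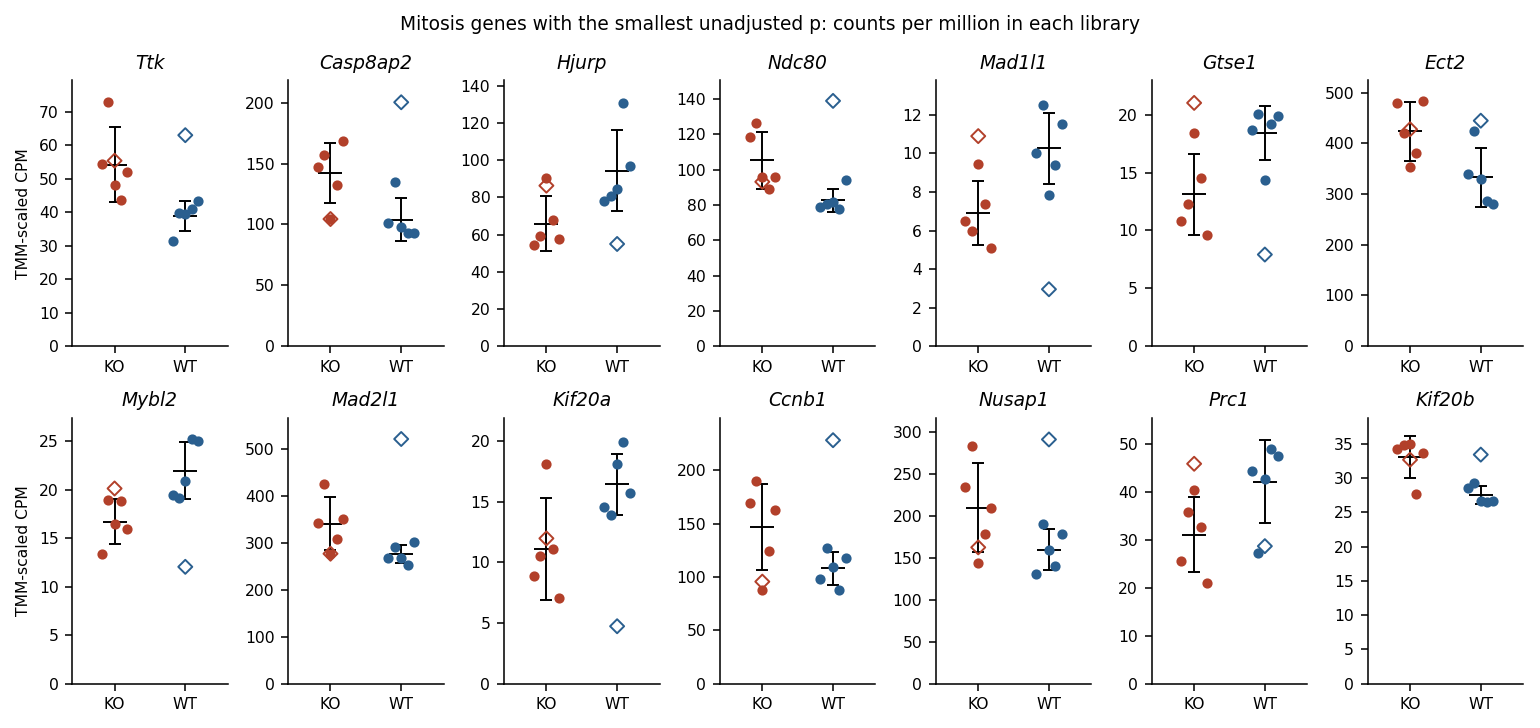
TMM-scaled CPM of the 14 mitosis genes with the smallest unadjusted p; filled points are the 5 compared libraries of KO (left) and WT (right), black bars their mean ± SD, and open diamonds KO4 and WT2, the libraries marked by the submitters. The groups are apart for Ttk and Mybl2, and WT2 lies beyond the other WT libraries for Ccnb1 (228 CPM) and Kif20a (4.73 CPM).

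The marked libraries had the reverse order. For each of the 18 genes at an unadjusted p under 0.05, KO4 and WT2 stood in the order opposite to that of the group means. Skil kept its order, at 14.014 CPM in KO4, the lowest of the 12 libraries, and 76.5 CPM in WT2, the highest. The summed Purkinje markers were at 306 CPM in KO4 and 752 CPM in WT2, and the Bergmann glia and astrocyte markers at 1256 and 2282 CPM. Ttk had 55.4 CPM in KO4 and 63.0 CPM in WT2, Hjurp 86.3 and 55.0 CPM, Ccnb1 95.7 and 228 CPM, and Kif20a 11.97 and 4.73 CPM. With these libraries included, no mitosis gene was called by edgeR, against 0.00751% of all genes as higher and 0% as lower. By the unadjusted limit, 1 gene was higher (1.85%, against 1.91% of all genes) and 0 were lower (0%, against 1.55%). That gene was Ttk, with a log2 fold change of 0.34 (edgeR's test over 12 libraries, unadjusted p = 0.0474, adjusted p = 0.999). The median over the 54 genes was then 0.04, with 34 of 54 estimates above 0 (63%, against 49.4% of all genes).

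The direction of the estimates followed the GC content of the transcripts. All 12 genes higher at an unadjusted p under 0.05 were among the 27 with the lower GC content, under 46.3% in the longest annotated transcript, and 5 of the 6 lower ones were among the other 27, Prc1 being the exception. The 27 genes of lower GC content had a median log2 fold change of 0.17, with 18 above 0, and the 27 of higher GC content had -0.13, with 5 above 0. Among all genes tested, split at the same GC content, the medians were 0.19 over 4607 genes and -0.10 over 8825 genes. Across the 54 genes, Pearson's r of log2 fold change on GC content was -0.65 and Spearman's rho was -0.65, and across all genes tested r was -0.46 and rho -0.50. These are descriptions across genes of the same libraries, and genes are not independent replicates.

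**Figure D4:**
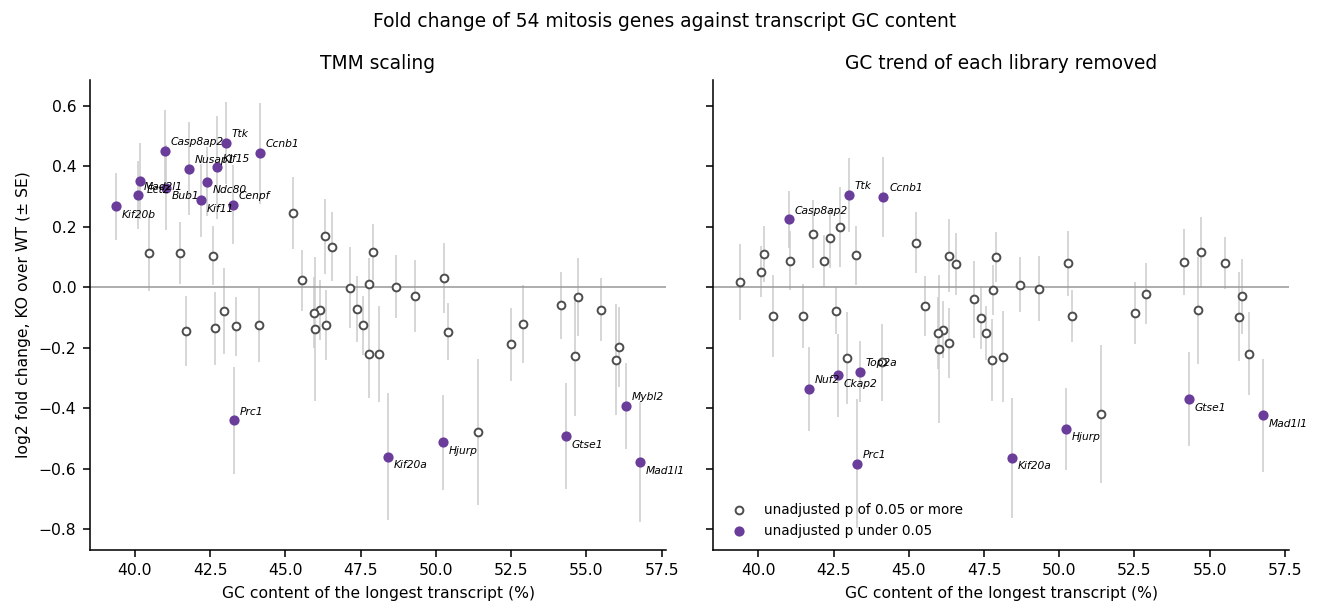
Log2 fold change, KO over WT, with standard error, against the GC content of the longest transcript for the 54 mitosis genes, as scaled by TMM (left) and with the GC trend of each library removed (right); filled points passed the unadjusted limit of 0.05 (edgeR). On the left 12 genes are filled above 0 and 6 below, and on the right 3 above and 8 below.

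The same was visible library by library. The summed CPM of the 27 genes of lower GC content, divided by that of the other 27, was 1.44, 1.41, 0.945, 1.156 and 1.36 in KO, against 1.01, 1.19, 1.05, 0.916 and 1.02 in WT. KO2, KO3 and KO8 were above every WT library, and KO5 was below all but WT6. KO4 had a ratio of 0.961 and WT2 of 1.64, the highest of the 12. Among all genes tested, the median deviation of those of lower GC content was likewise highest in WT2, at 0.35 on the log2 scale, and it was -0.12 in KO4 and -0.11 in KO5.

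**Figure D5:**
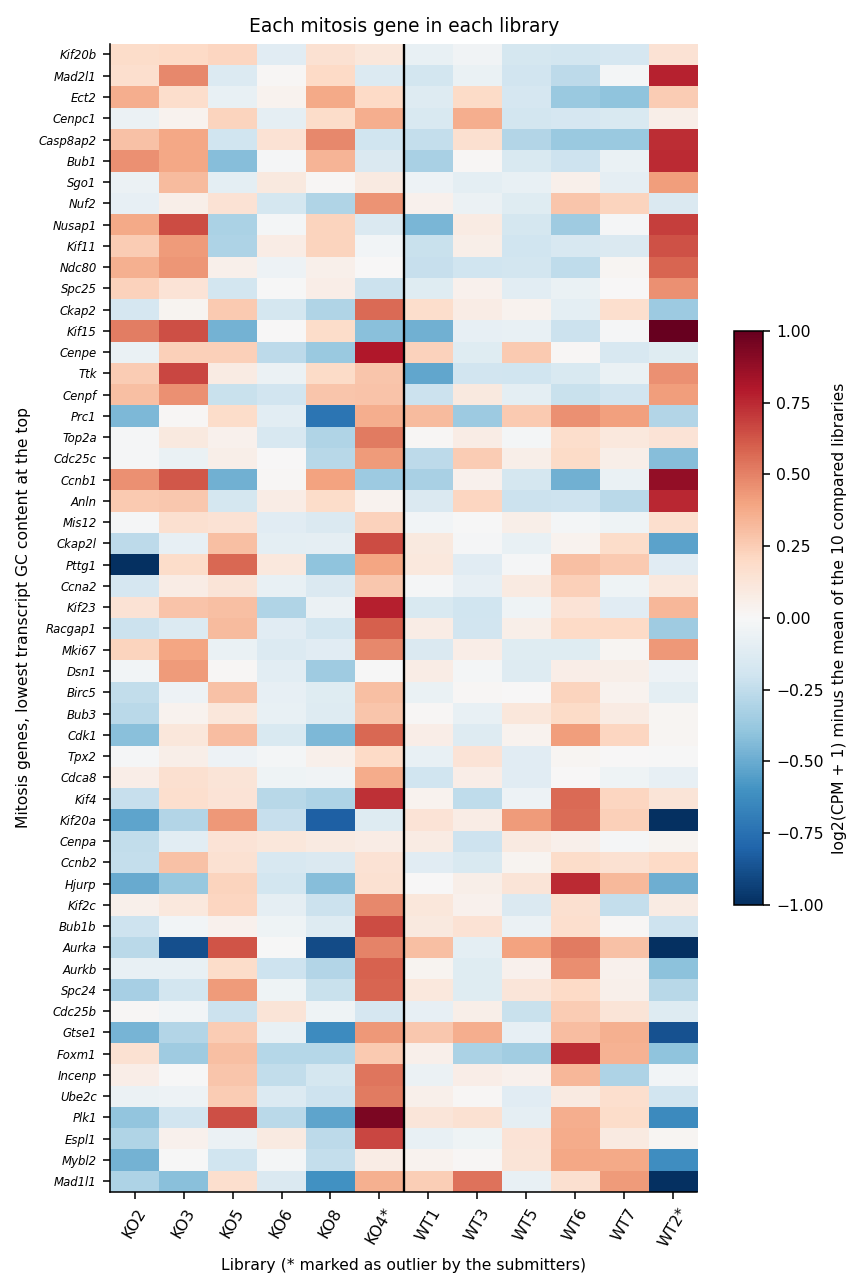
Deviation of log2(CPM + 1) of each mitosis gene (rows, lowest transcript GC content at the top) in each library (columns, KO left of WT, * for KO4 and WT2) from the mean of the 10 compared libraries. KO2 and KO8 have a median deviation of 0.17 and 0.06 over the 27 genes of lower GC content and of -0.24 and -0.23 over the other 27, while KO5 has 0.05 and 0.19.

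With the trend of each library on GC content removed, no mitosis gene was called by edgeR at an adjusted p of 0.05, against 0.0223% of all genes called as higher and 0.0149% as lower. At an unadjusted p under 0.05, 3 genes were higher (5.56%, against 8% of all genes tested) and 8 lower (14.8%, against 7.67%), and 8 of these 11 had been so in the same direction without the correction. The higher ones were Ttk (log2 fold change 0.31, SE 0.12), Ccnb1 (0.30, SE 0.13) and Casp8ap2 (0.22, SE 0.10). The lower ones were Hjurp (-0.47, SE 0.14), Kif20a (-0.56, SE 0.20), Prc1 (-0.58, SE 0.21), Gtse1 (-0.37, SE 0.15) and Mad1l1 (-0.42, SE 0.19), joined by Top2a (-0.28, SE 0.10), Nuf2 (-0.34, SE 0.14) and Ckap2 (-0.29, SE 0.14). Their adjusted p ran from 0.176 to 0.314. Mad2l1, Ect2, Kif20b, Kif11 and Bub1 had estimates from 0.02 to 0.11 there.

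The outcome rested on KO5. This library had the lowest Skil level of the 5 KO libraries, and for 14 of the 18 genes at an unadjusted p under 0.05 its value was nearer to the WT mean than to the KO mean. Without it, edgeR's test called 12 mitosis genes as higher (22.2%, against 12.3% of all genes tested) and 9 as lower (16.7%, against 10.6%), at an adjusted p under 0.05. The 12 higher were all among the 27 genes of lower GC content, and 8 of the 9 lower were among the other 27. By the unadjusted limit 13 were higher (24.1%, against 18.1%) and 13 lower (24.1%, against 17.4%). Ccnb1 stood at 0.58 (SE 0.12, adjusted p = 0.00216 in edgeR's test), Casp8ap2 0.54 (adjusted p = 0.00208), Bub1 0.45 (adjusted p = 0.00438) and Ttk 0.52 (adjusted p = 0.00748). On the lower side were Hjurp at -0.65 (adjusted p = 0.00201), Kif20a at -0.81 (adjusted p = 0.00278), Aurka at -0.78 (adjusted p = 0.00346) and Plk1 at -0.51 (adjusted p = 0.00486).

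Without KO5 and with the GC trend removed, a fit chosen after the data were seen, 1 mitosis gene was called as higher (1.85%, against 5.85% of all genes) and 10 as lower (18.5%, against 5.98%). The higher one was Ccnb1 (0.41, adjusted p = 0.0103 in edgeR's test). The lower ones were Hjurp (-0.58, adjusted p = 0.00400), Kif20a (-0.80, adjusted p = 0.00460), Ckap2, Nuf2, Aurka, Top2a, Prc1, Racgap1, Cdk1 and Gtse1. Of these 11 genes, 7 were called in the same direction in the fit without KO5 that kept the GC trend. With KO4 and WT2 kept and KO5 left out, no mitosis gene was called in edgeR's test. By the unadjusted limit 2 were higher and 1 lower, and the share over all genes was not computed for that fit.

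Other genes of mitosis, a list of 87 that shares none of the 54, were all tested, and none passed in edgeR's test with KO5 included; without KO5, 16 were called as higher (18.4%, against 12.3% of all genes) and 12 as lower (13.8%, against 10.6%). By the unadjusted limit, 11 were higher (12.6%, against 11.8% of all genes) and 5 lower (5.75%, against 9.97%), with a median log2 fold change of 0.02. With the GC trend removed 9 were higher (10.3%, against 8% of all genes) and 7 lower (8.05%, against 7.67%), near the shares over all genes. The smallest p was that of Arhgap11a, a RhoA regulator of cytokinesis, at 108 ± 16.5 CPM in KO and 77.0 ± 13.0 CPM in WT (SD, n = 5 each; log2 fold change 0.49, adjusted p = 0.131). Kifc1, a minus-end kinesin, averaged 28.1 ± 5.29 CPM in KO and 39.1 ± 6.65 CPM in WT, and Lmnb1, encoding lamin B1, 273 ± 69.5 CPM in KO and 374 ± 48.3 CPM in WT. The next were the kinetochore genes Cenpw (93.3 CPM in KO, 70.7 in WT) and Cenpt (13.1 in KO, 20.2 in WT) and the abscission gene Cep55 (65.5 in KO, 52.1 in WT).

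Over the 12 libraries, genes outside the list whose log2 CPM followed Mki67 closely included Larp7 (r = 0.94), Pcbp1 (0.90), Rsl1d1 (0.90) and Xrcc5 (0.89). Within the list Cenpf (0.81) and Ttk (0.78) were closest, and Kif20a (-0.53) and Aurka (-0.44) had the lowest values. These values are descriptions over libraries of both genotypes that share the GC trend.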

How the data were processed

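Deposited values were counts of reads per gene in 1 table for each of 12 libraries. Per the submitters' processing notes, the authors used cutadapt 1.16, STAR 2.5.3a, HTSeq 0.6.1, DESeq2 and the mm10 build; their settings were not given in the labels. Per the labels, KO4 and WT2 were outliers by a robust PCA, and they were left out of the main comparison. Rows that name no gene were left out. Of the alignments tallied as unique or not unique, 64.4% to 67.6% per library were not unique and were not counted for any gene. Of the unique reads, 10.8% to 14.7% fell on no feature and 6.81% to 8.13% were ambiguous.

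Counts were tested with edgeR 4.0.16 (quasi-likelihood test, TMM factors, filterByExpr with a minimum count of 10) in R 4.3.3, with Benjamini-Hochberg adjustment over all genes tested. The fit was also run on simulated counts with the same dispersion for every gene. They held no GC trend and no deviating library, so that run cannot show how the fit behaves with either. Single genes also had a two-sided exact permutation test of log2(CPM + 1). Alternatives used DESeq2 1.42.0, limma 3.58.1, other filters and scalings, other sets of libraries, a block on replicate number, and an offset that removed a spline of GC content (5 degrees of freedom) from each library. GC content and shared windows came from GENCODE M21 (GRCm38). Correlations of deviations between same-numbered KO and WT libraries lay within the range of those between differently numbered ones. The numbers were not taken as pairs, and pairing was not excluded.

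The 54 genes and all lists were chosen with earlier results of these data known. Values for each library are given for the 14 genes with the smallest unadjusted p and for Mki67, Top2a, Cdk1, Ccnb1, Plk1, Aurkb, Foxm1 and Skil; per role, the genes with the highest and lowest level per kilobase were named, with 6 of the other mitosis genes by smallest p and 4 of the 5 genes most like Mki67; the other is not reported here.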

Additional observations from a re-analysis of the deposited data

Results flagged for a closer look

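In 11 of 108 groups of 5 libraries (54 genes in KO and in WT), 1 library stood apart from the other 4 by Dixon's test. The nominal rate of this test is about 5%. The groups reuse the same libraries and are not independent, and the share over all genes was not computed. The count is therefore no result about these genes. In KO, KO5 was high for Plk1 (64.09 CPM, others 27.92 to 35.57), Ckap2l (55.44 CPM, others 37.28 to 42.3) and Racgap1 (185 CPM, others 127.6 to 137.2). KO6 was low for Kif20b (27.75 CPM, others 33.68 to 35.03). In WT, WT3 was high for Cenpc1 (55.16 CPM, others 37.33 to 38.16), Kif11 (215.4 CPM, others 177.3 to 187.3), Anln (104 CPM, others 74.09 to 80.94) and Casp8ap2 (134.5 CPM, others 92.6 to 101.5). WT6 was high for Aurkb (154.1 CPM, others 102.4 to 114.8) and WT7 for Ndc80 (94.1 CPM, others 77.71 to 81.59). WT5 was low for Gtse1 (14.39 CPM, others 18.72 to 20.06).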

How the results depend on the processing

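In the main comparison edgeR called 2 genes of all as higher and 1 as lower, no mitosis gene, and 12 higher and 6 lower mitosis genes at an unadjusted p under 0.05. DESeq2 called 237 genes as higher and 224 as lower, of which 2 and 1 were mitosis genes. With no filter beyond a count of 1, 634 and 331 genes were called, of which 6 and 3 were mitosis genes. Where a count of mitosis genes has no share over all genes here or above, that share was not computed. Such a count describes the fit and is no result about these genes. By library size alone, 6 mitosis genes were higher at an unadjusted p under 0.05; that scaling moved the median of all genes to -0.08. Over all 12 libraries, 1 gene was called as higher and 0 as lower, 1 and 0 mitosis genes passed the unadjusted p, and their median was 0.042. Voom with quality weights over the same 12 libraries called 3 and 1 genes. There 13 and 7 mitosis genes passed the unadjusted p, and their median was -0.061. With KO2 counted as wild type, 0 and 0 genes were called, and 1 and 0 mitosis genes passed the unadjusted p. With the GC offset, 3 and 2 genes were called, and 3 mitosis genes were higher at the unadjusted p. With the GC offset over 12 libraries, 1 and 2 genes were called, and 1 and 0 mitosis genes passed it. With the replicate block, 0 and 0 genes were called, and 2 and 1 mitosis genes passed the unadjusted p. With the GC offset and the replicate block, 0 and 0 genes were called and 0 and 1 mitosis genes passed the unadjusted p. Only the numbers 3, 5 and 6 occur in both groups, so the block compared genotypes within those alone. It could hardly call a gene, and nothing is concluded from its lack of calls. The correlations of deviations between same-numbered libraries were 0.111, -0.047 and 0.0936, against -0.236 to 0.283 between libraries of different number. So few values cannot show whether same-numbered libraries are pairs.

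Leaving out 1 library at a time gave 0 to 1662 genes called as higher and 0 to 1440 as lower, 0 to 12 and 0 to 9 mitosis genes called, 4 to 14 and 5 to 13 mitosis genes at the unadjusted p, and a median of -0.11 to -0.01. The upper ends of the called counts came without KO5, and the 4 higher genes without KO3; without WT1 and without KO2 there were 7. The following were chosen after seeing the data. With all libraries but WT2, 1 and 0 genes were called. With all but KO4, 1 gene was called as higher, and 0 and 1 mitosis genes passed the unadjusted p. With the GC offset and without KO5, 793 and 811 genes were called, of which 1 and 10 were mitosis genes. At the unadjusted p, 5 mitosis genes were higher (9.26%, against 13.5% of all genes) and 18 lower (33.3%, against 13.5%). Without KO5 but with KO4 and WT2, 1 and 0 genes were called, and 2 and 1 mitosis genes passed it. Over all 54 genes, with those near 0 included, 136 estimates under the 26 alternatives had the other sign, 8 of them with the GC offset. Of the log2 fold changes of the 21 genes given library by library, Skil included, under 26 alternatives, 502 kept their direction and side of the threshold, 38 came to pass it and 6 changed sign: Plk1 was at 0.098 over 12 libraries, 0.14 with the GC offset over 12 and 0.031 with the GC offset and the replicate block, Aurkb at 0.021 and 0.069 over 12 libraries without and with the GC offset, and Kif20b at -0.10 with the GC offset and without KO5. The cause was not tested.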
